A study of Mus musculus with 28 samples.

Results

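The genes described here are 40 genes of mitosis and of the mitotic spindle, chosen by symbol from a list of cyclins, mitotic kinases, checkpoint, kinetochore, spindle and cytokinesis genes. All 40 were found among the 31053 genes of the count files, and all 40 were among the 11080 genes that held enough counts to be tested. The assay was 3′ digital gene expression sequencing, in which reads come from the 3′ ends of polyadenylated RNA. The cells were E14, an established line of mouse embryonic stem cells first taken from a blastocyst. The labels describe 7 groups of 4 libraries, 28 in all, with 1 library of each group in each of 4 numbered experiments.

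All groups were grown in the serum-free medium N2B27 on gelatin, after plating as single cells in 2iL. The name 2iL stands for the MEK inhibitor PD0325901, the GSK3 inhibitor CHIR99021 and the cytokine LIF, which together hold the cells in naive pluripotency. The first group stayed in 2iL. Further groups were collected 24, 48, 96 and 120 h after 2iL was withdrawn. In the 2 groups called 48 h + 2iL and 96 h + 2iL, cells were withdrawn for 48 or 96 h and then received 2iL again for 24 h. The group 96 h + 2iL has the same total time as the 120 h group, and no group matches the total time of 48 h + 2iL. The labels do not say whether the libraries of a group differ in more than the experiment number, so the p-values measure the spread between these libraries, which may be partly technical.

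A cell enters mitosis when cyclin B and cyclin-dependent kinase 1, activated by CDC25 phosphatases, pass a threshold that PLK1 and the Aurora kinases help to set. Chromosomes attach through kinetochores to a spindle that motor proteins build, and the checkpoint proteins hold back the anaphase-promoting complex until every kinetochore is attached. That complex, with CDC20 and the ubiquitin-conjugating enzyme UBE2C, then marks cyclin B and securin for destruction, and the cell divides at the central spindle. Most of these transcripts accumulate in G2 and mitosis, under the DREAM and MuvB complexes, MYBL2, FOXM1 and NF-Y. Mouse embryonic stem cells cycle quickly with a short G1 phase.

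The libraries held between 1554830 and 2828694 gene counts, and the 40 genes together held 7689 to 14563 of these counts, or 0.472% to 0.652% of them. Values per gene are given as CPM, the usual count share scaled to a common library size, here over the tested genes and after adjustment by the trimmed mean of M values (TMM), in the order of experiments 1 to 4. A mean CPM is followed by its SD over 4 libraries, and a log2 change by its standard error. A gene rose or fell where its adjusted p was under 0.05 in edgeR's quasi-likelihood test, with Benjamini-Hochberg adjustment over all 11080 genes. Groups without overlap were common over all tested genes. Against 2iL this held for 16.4% of them at 24 h, 28% at 48 h, 36.5% at 96 h and 42% at 120 h. Of the 40 members it held for 14, 15, 7 and 7 at these times. In the other comparisons of 2 groups it held for 6.76% to 35.8% of all tested genes. The state of the cells was read from marker genes. The summed level of 11 naive markers was 2280 to 2582 CPM in 2iL, 66.2 to 98.9 CPM at 120 h and 103.7 to 687.8 CPM at 96 h + 2iL, where experiment 3 was the lowest. The summed level of 8 neural progenitor markers was 14.3 to 24.0 CPM in 2iL, 254.4 to 662.4 CPM at 120 h and 175.2 to 825.4 CPM at 96 h + 2iL, where experiment 3 was the highest. For that reason the counts of members called between 96 h + 2iL and another group are also given without its experiment 3 library. Summed levels are given with all 4 libraries. Experiment 4 at 96 h + 2iL lay between experiment 3 and experiments 1 and 2, at 328.4 CPM for the naive and 478.6 CPM for the neural progenitor markers. Fibroblast markers summed to 288.6 to 839.4 CPM over these 3 groups. The 7 primitive endoderm markers summed to 3.98 to 11.65 CPM in 2iL, 18.38 to 25 CPM at 120 h and 8.25 to 15.66 CPM at 96 h + 2iL. Of the 3 that were tested, 1 rose and 0 fell against 2iL at 120 h, and likewise at 96 h + 2iL. Over all tested genes 24.6% rose and 22.6% fell at 120 h, and 21.4% and 19.5% at 96 h + 2iL. Among the 7, Gata4, Gata6 and Sox17 did not exceed 1.62 CPM in any library.

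As a whole the mitosis genes were higher in the first 48 h without 2iL, overlapped with the 2iL level at 96 and 120 h, and were lower again when 2iL was returned. The summed level of all 40 genes was 5705, 5544, 5265 and 5294 CPM in 2iL, 6557, 6864, 6495 and 6881 CPM at 24 h, and 6400, 6412, 6469 and 6686 CPM at 48 h. Each of the 8 libraries at 24 and 48 h lay above all 4 libraries in 2iL. The mean was 22.9% higher at 24 h and 19.1% higher at 48 h, and 4 of 4 experiments went that way at both times. At 96 h the sum was 5314 ± 74.8 CPM and at 120 h 5464 ± 236 CPM, against 5452 ± 210 CPM in 2iL, and these ranges overlapped. Scaled by library totals the mean at 120 h was 8.96% above 2iL, against 0.229% with TMM. After the return of 2iL the sum was 5271 ± 211 CPM at 48 h + 2iL, or 18.8% below 48 h, and 4816 ± 225 CPM at 96 h + 2iL, or 11.9% below 120 h, each lower in 4 of 4 experiments. The sum is weighted towards the genes with most counts, Top2a above all; without Top2a it was 23.3% higher at 24 h and 15.5% lower at 48 h + 2iL than at 48 h. In these bulk samples a larger share of cells in mitosis and more RNA per cell cannot be told apart.

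**Figure D1:**
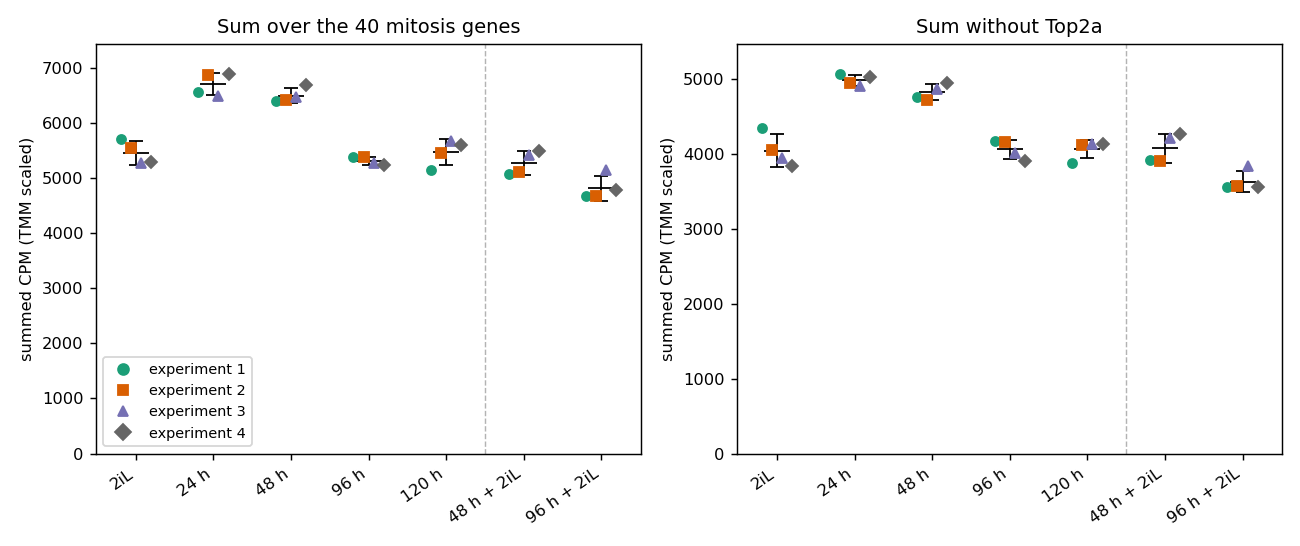
Summed level of the 40 mitosis genes (left) and of the same genes without Top2a (right) in CPM, by group. Points are the 4 experiments and bars are the mean ± SD; with all 40 genes, the 24 h and 48 h libraries lie between 6400 and 6881 CPM, above all other groups.

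The genes share sequence at their starts, which did not enter into how they were chosen. Promoter windows from 250 bases before to 50 bases after the transcript start were available for 34 of the 40 genes in the RefSeq table for GRCm38.p6. Both strands were searched for the cell cycle genes homology region, which MuvB complexes bind, written as TTTGAA or TTCGAA, and for the CCAAT box, which NF-Y binds. The homology letters stood in 26 of 34 windows (76.5%) against 21.7% of the windows of 27025 genes, CCAAT in 26 of 34 (76.5%) against 41.1%, and both in 23 of 34 (67.6%) against 8.61%. In 24 genes the homology letters lay within 50 bases of the start, and in 22 of these CCAAT lay upstream of them, with a median of 35 bases between their first letters. Birc5, Mad2l1, Nuf2, Nusap1 and Pttg1 held neither motif, and of these Birc5 and Nusap1 rose at 24 and 48 h, Nuf2 rose at 24 h, Pttg1 fell at 48 h and Mad2l1 was not called. A match is a description of these letters only, and windows of Ccna2, Aurkb, Incenp, Tpx2, Cdc25c and Kif20a were not analysed here.

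The windows printed here belong to 5 of the 6 genes that hold both motifs and were called in 4 or more of the comparisons (Hmmr is the other), and they show how differently the motifs are spread. Each runs 5′ to 3′ along the gene, and capitals mark every match on either strand, so that ATTGG is CCAAT and TTCAAA is TTTGAA on the other strand. The window of Ube2c lies at chr2:164769679-164769978 on the plus strand, Plk1 at chr7:122159185-122159484 on the plus strand, Top2a at chr11:99024140-99024439 on the minus strand, Aurka at chr2:172370521-172370820 on the minus strand and Ccnf at chr17:24251360-24251659 on the minus strand.
Ube2c: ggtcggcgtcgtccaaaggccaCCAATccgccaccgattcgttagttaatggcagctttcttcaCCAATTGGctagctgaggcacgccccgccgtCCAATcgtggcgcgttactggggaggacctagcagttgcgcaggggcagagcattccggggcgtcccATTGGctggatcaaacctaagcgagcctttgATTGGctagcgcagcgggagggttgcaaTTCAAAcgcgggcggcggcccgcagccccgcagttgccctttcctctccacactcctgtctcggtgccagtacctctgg
Plk1: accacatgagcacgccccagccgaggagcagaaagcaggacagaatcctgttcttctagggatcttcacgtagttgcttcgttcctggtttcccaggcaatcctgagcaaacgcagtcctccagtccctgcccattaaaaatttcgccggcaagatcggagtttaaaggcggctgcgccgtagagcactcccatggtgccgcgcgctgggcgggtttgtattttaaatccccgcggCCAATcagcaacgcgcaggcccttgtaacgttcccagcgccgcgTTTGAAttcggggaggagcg
Top2a: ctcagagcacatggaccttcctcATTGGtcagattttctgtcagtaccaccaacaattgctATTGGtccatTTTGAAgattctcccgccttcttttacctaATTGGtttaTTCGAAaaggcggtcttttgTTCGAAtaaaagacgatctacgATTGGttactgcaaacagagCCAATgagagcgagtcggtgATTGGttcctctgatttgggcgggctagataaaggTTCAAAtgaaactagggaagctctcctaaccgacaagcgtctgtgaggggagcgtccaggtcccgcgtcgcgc
Aurka: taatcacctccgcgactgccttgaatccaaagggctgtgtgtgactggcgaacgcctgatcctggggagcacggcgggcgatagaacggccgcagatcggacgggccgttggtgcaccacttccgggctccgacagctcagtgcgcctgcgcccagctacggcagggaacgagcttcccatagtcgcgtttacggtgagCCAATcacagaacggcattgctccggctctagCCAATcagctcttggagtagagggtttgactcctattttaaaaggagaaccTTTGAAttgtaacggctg
Ccnf: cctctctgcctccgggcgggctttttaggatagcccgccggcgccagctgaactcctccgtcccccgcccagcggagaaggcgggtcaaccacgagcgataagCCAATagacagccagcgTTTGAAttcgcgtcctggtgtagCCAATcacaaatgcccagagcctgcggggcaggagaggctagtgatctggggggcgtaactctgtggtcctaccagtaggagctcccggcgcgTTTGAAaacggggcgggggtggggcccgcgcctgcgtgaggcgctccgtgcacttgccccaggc
Ube2c holds 6 CCAAT matches, of which a pair overlap in CCAATTGG, and 1 homology match 29 bases before the start. Plk1 holds 1 of each, with the homology letters 31 bases after the start. Top2a holds 6 CCAAT and 4 homology matches over most of the window. Aurka holds a pair of CCAAT boxes and 1 homology match 33 bases after the start. Ccnf holds 2 of each, in the order CCAAT, homology, CCAAT and homology. Among these 5 genes, Ube2c, Plk1, Top2a and Aurka rose on withdrawal and Ccnf did not.

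**Figure D2:**
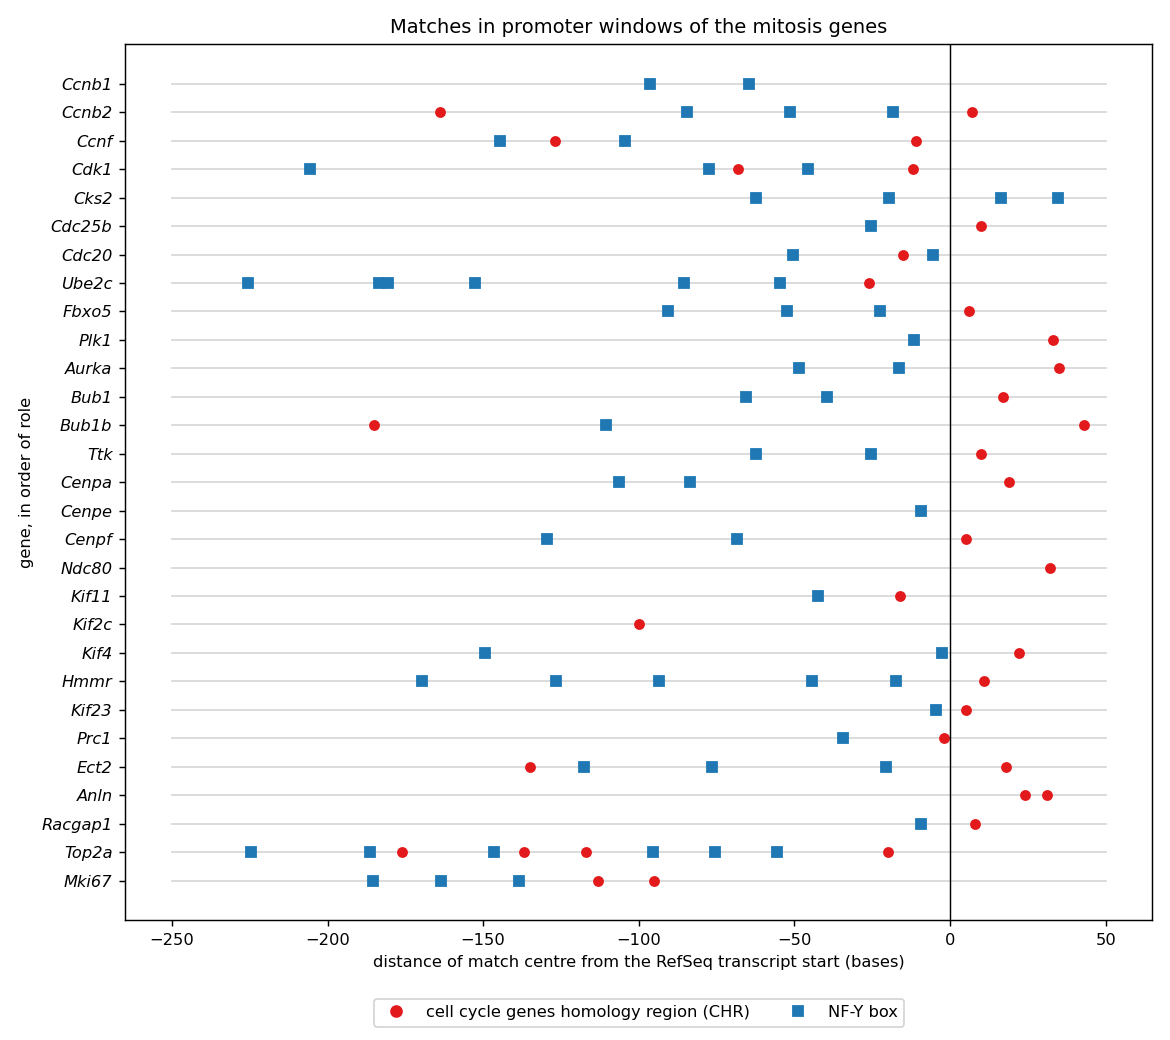
Positions of the matches to the cell cycle genes homology region (circles) and the NF-Y box (squares) in the RefSeq promoter windows of the mitosis genes with a match, in bases from the transcript start at 0. Homology matches gather around the start in most genes, 24 of them within 50 bases, and NF-Y boxes mostly lie upstream of them.

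The first comparison asked what withdrawal of 2iL did within 24 h. Of the 40 genes, 13 rose and 0 fell, where 7.68% of all tested genes rose and 8.29% fell. At an unadjusted p under 0.05, 1 member fell, Pttg1, and DESeq2 called 15 that rose and 0 that fell. The median log2 change was 0.31 over the members and 0.011 over all tested genes, and 33 of 40 members had a positive change. The 13 that rose were Ccna2, Cdc20, Ube2c, Plk1, Aurka, Birc5, Bub1b, Nuf2, Kif11, Tpx2, Nusap1, Hmmr and Top2a. At 48 h 12 rose and 1 fell, where 14.6% of all tested genes rose and 13.2% fell, with a median log2 change of 0.23 against 0.024 over all genes. These 12 were Cdc20, Ube2c, Plk1, Aurka, Incenp, Birc5, Bub1b, Kif11, Tpx2, Nusap1, Hmmr and Top2a, and the gene that fell was Pttg1. Both times were compared with the same 4 libraries in 2iL. With the experiment number as a block, Ccnb1, Cdc25b, Incenp and Ttk also rose at 24 h (adjusted p = 0.0444, 0.0166, 0.0398 and 0.0463), and Ccna2 and Cdk1 at 48 h (0.0377 and 0.0462).

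**Figure D3:**
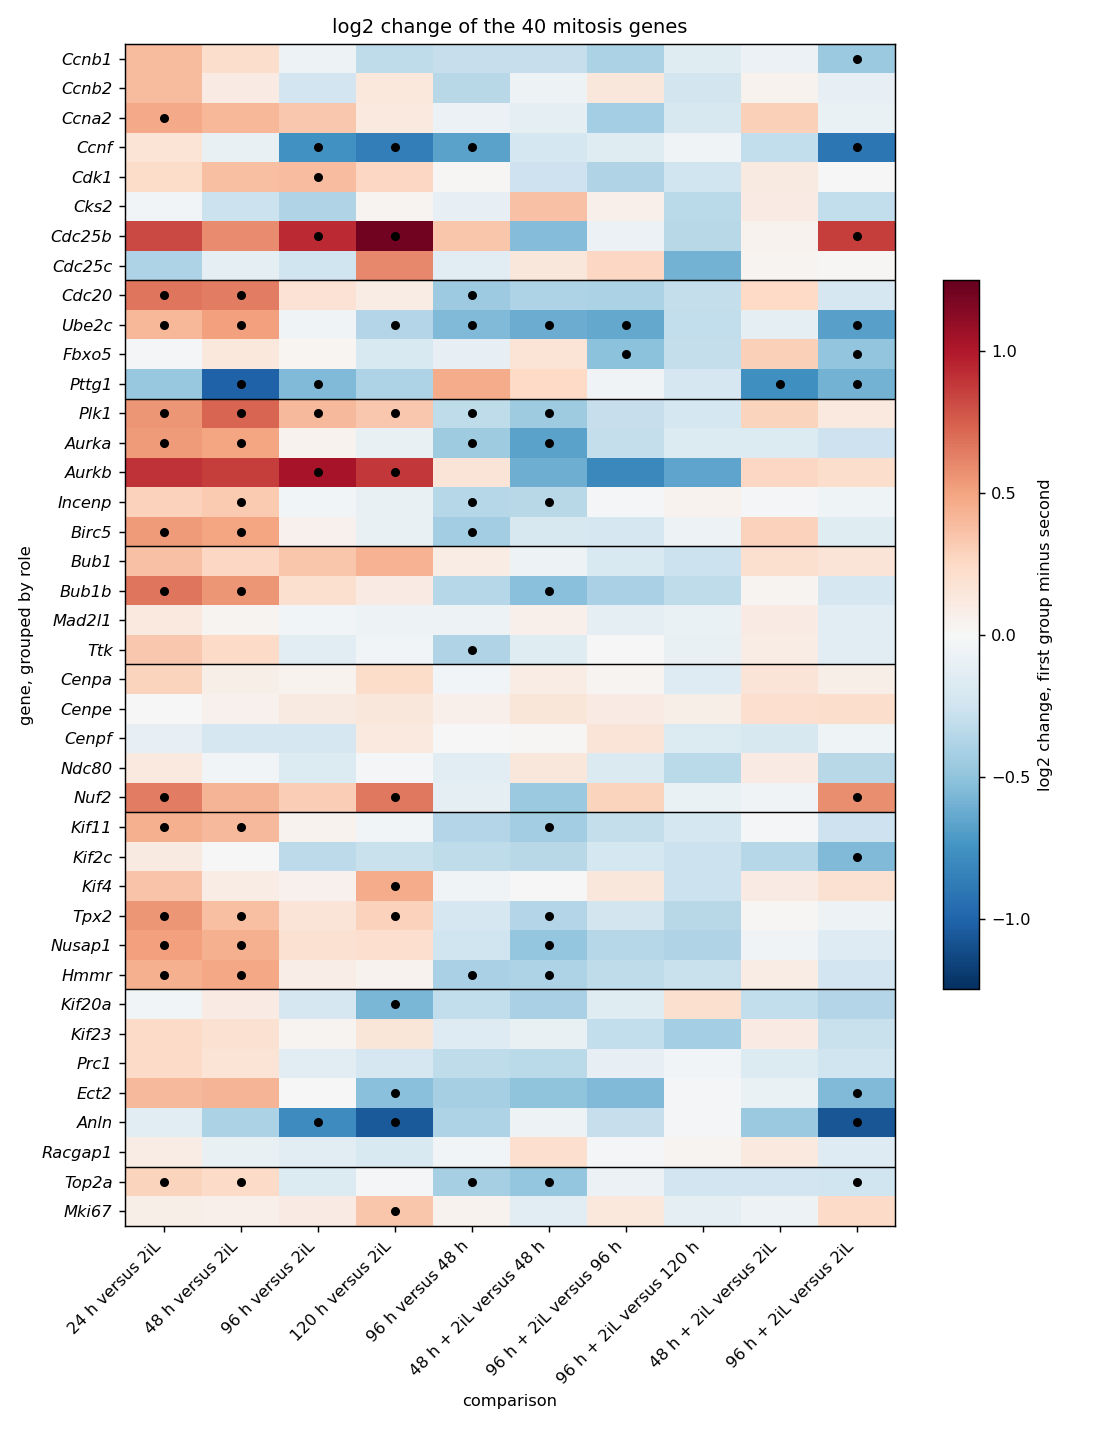
Log2 change of each of the 40 genes (rows, by role) in each comparison of 2 groups (columns), from red for higher to blue for lower in the first group named; dots mark an adjusted p under 0.05. The 24 h and 48 h columns are mostly red and the columns of the return of 2iL mostly blue, while Pttg1, Ccnf, Anln, Cdc25b and Aurkb follow courses of their own.

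Of the 8 cyclins, CDK1 and its activators, 1 rose at 24 h and 0 at 48 h with edgeR's test, where 7.68% and 14.6% of all tested genes rose. At these times 6 and 5 of the 8 changes were positive. Ccna2, cyclin A2, was at 74.4, 47.2, 46.97 and 45.99 CPM in 2iL and 88.1, 57.03, 73.1 and 80.2 CPM at 24 h, a log2 change of 0.47 ± 0.16 (adjusted p = 0.043) with overlapping groups. That call was lost when any of 6 of the 8 libraries was left out, with adjusted p up to 0.149, and 11.2% of the gene's end sequence is shared with the overlapping gene Exosc9. Ccnb1, cyclin B1, had a log2 change of 0.39 ± 0.16 at 24 h (adjusted p = 0.0884) and was higher in 4 of 4 experiments. Its levels were 153, 122, 83.4 and 90.8 CPM in 2iL and 192, 144, 128 and 123 CPM at 24 h, with experiment 1 the highest in both groups, and 33.7% of its end sequence also occurs in pseudogenes and other copies. Ccnb2 and Cdk1 did not pass the test at 24 or 48 h (log2 change 0.40 and 0.23 at 24 h). Cks2 and Cdc25c, at 3.46 to 19.3 CPM in every library, did not pass in any comparison, and 39.9% of the end sequence of Cks2 occurs in other genes.

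Cdc25b, a phosphatase that activates CDK1 at the entry into mitosis, had the highest log2 changes of these 8 genes at 24 and 48 h and did not pass at either time without the block. It was at 17.9, 19.8, 19.5 and 13.1 CPM in 2iL, 41.3, 24.04, 36.5 and 24.2 CPM at 24 h and 33.2, 21.2, 29.3 and 22.7 CPM at 48 h. The groups did not overlap, yet the log2 changes of 0.83 ± 0.30 and 0.59 ± 0.31 had adjusted p of 0.0604 and 0.163. Experiments 1 and 3 were the high libraries at both times.

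The partners of the anaphase-promoting complex split into genes that rose and a substrate that fell. Cdc20, which activates the complex at anaphase, was at 214, 151, 125 and 146 CPM in 2iL, 294, 249, 244 and 219.8 CPM at 24 h and 239, 247, 231 and 271 CPM at 48 h. Every library at both times lay above every library in 2iL, with log2 changes of 0.67 ± 0.14 (adjusted p = 0.000812) and 0.64 ± 0.14 (adjusted p = 0.000624). Ube2c, which supplies ubiquitin to the complex, was at 286, 241, 235 and 203 CPM in 2iL, 362, 294, 307 and 324 CPM at 24 h and 372, 314, 319 and 374 CPM at 48 h. Here too the groups did not overlap, and the log2 changes were 0.41 ± 0.12 (adjusted p = 0.0164) and 0.51 ± 0.12 (adjusted p = 0.00141). Without the experiment 4 library in 2iL or the experiment 1 library at 24 h the 24 h call was lost (adjusted p = 0.0797 and 0.0629). Fbxo5, which encodes the inhibitor EMI1, had log2 changes of -0.02 and 0.13 and did not pass.

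Pttg1 encodes securin, the protein that the complex destroys to release the cohesin-cutting enzyme separase. Its transcript went the other way, at 125, 117, 157 and 122 CPM in 2iL, 72.9, 95.2, 85.7 and 122 CPM at 24 h and 46.1, 51.8, 85.5 and 76.04 CPM at 48 h. At 48 h all 4 libraries lay below all 4 in 2iL, and the gene fell by 1.01 ± 0.18 on the log2 scale (adjusted p = 4.73e-05). At 24 h the groups overlapped in experiment 4, and the log2 change of -0.48 ± 0.17 missed the threshold and passed with the experiment block (adjusted p = 0.0603 without it and 0.0153 with it). Its end sequence is not shared with another gene.

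Of the 5 mitotic kinases and genes of the chromosomal passenger complex, 3 rose at 24 h and 4 at 48 h, where 7.68% and 14.6% of all tested genes rose. All 5 changes were positive at both times. Plk1, which drives entry into mitosis and spindle assembly, was at 160.4, 149, 162 and 127 CPM in 2iL, 238, 198, 220.5 and 224 CPM at 24 h and 224, 245, 278 and 245 CPM at 48 h. No library overlapped with 2iL, and the log2 changes were 0.55 ± 0.11 (adjusted p = 0.000605) and 0.73 ± 0.11 (adjusted p = 6.8e-06). Aurka, the kinase of the spindle poles, was at 102, 72.98, 67.6 and 67 CPM in 2iL, 113, 106, 119 and 109 CPM at 24 h and 104, 107, 115 and 109 CPM at 48 h. It rose by 0.53 ± 0.13 (adjusted p = 0.00491) and 0.49 ± 0.13 (adjusted p = 0.00476), again without overlap. Of the chromosomal passenger complex, Birc5, or survivin, rose from 276 ± 18.7 CPM in 2iL to 399.8 ± 20.4 CPM at 24 h (log2 change 0.53 ± 0.12, adjusted p = 0.00127). Incenp, its scaffold, rose from 358 ± 29.6 CPM to 450.3 ± 28.9 CPM at 48 h (log2 change 0.33 ± 0.11, adjusted p = 0.0196), a call lost without experiment 1 or 3 in 2iL or experiment 1 or 2 at 48 h (adjusted p up to 0.0895). Aurkb, the kinase of that complex, was counted thinly, at 3.87, 6.87, 5.64 and 6.25 CPM in 2iL and 12.8, 11.8, 8.82 and 8.98 CPM at 24 h. Its libraries at 24 h all lay above those in 2iL, and the log2 change of 0.90 ± 0.33 had an adjusted p of 0.0612.

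Of the checkpoint genes, Bub1b, which encodes the checkpoint inhibitor BUBR1, was at 78.8, 66.97, 83.04 and 68.7 CPM in 2iL and 149.5, 122, 101 and 101 CPM at 24 h. The groups did not overlap, and it rose by 0.67 ± 0.16 at 24 h (adjusted p = 0.0038) and 0.56 ± 0.16 at 48 h (adjusted p = 0.00966; 0.0532 without experiment 4 at 48 h). Ttk, Bub1 and Mad2l1 did not pass at either time. Of the kinetochore genes, Nuf2, an outer kinetochore subunit that binds microtubules, was at 22.7, 23.6, 24.8 and 22.7 CPM in 2iL and 31.6, 40.5, 35.3 and 38.7 CPM at 24 h, and rose by 0.64 ± 0.19 (adjusted p = 0.0188; 0.0606 without experiment 2 at 24 h). Its partner Ndc80 had a log2 change of 0.12 ± 0.17, and Cenpa, Cenpe and Cenpf, of which Cenpa is the centromeric histone, lay between -0.10 and 0.28. Ndc80, Cenpa, Cenpe and Cenpf passed in 0 of the 10 comparisons of groups, with edgeR's test.

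Among the spindle proteins, 4 of 6 rose at 24 h and 4 of 6 at 48 h, where 7.68% and 14.6% of all tested genes rose. Tpx2, which activates Aurora A and nucleates microtubules, was at 228, 169, 163 and 173 CPM in 2iL, 264, 277, 244 and 288 CPM at 24 h and 238, 246, 225 and 241 CPM at 48 h. Experiment 1 in 2iL stood above the other 3, and the log2 changes were 0.55 ± 0.11 (adjusted p = 0.000467) and 0.38 ± 0.11 (adjusted p = 0.00923; 0.0557 without experiment 3 in 2iL). Hmmr, a spindle assembly factor, was at 86.96, 119.8, 116 and 90.8 CPM in 2iL, 126, 133, 146 and 162 CPM at 24 h and 148, 144, 158 and 129 CPM at 48 h. It rose by 0.45 ± 0.13 (adjusted p = 0.0131) and 0.48 ± 0.13 (adjusted p = 0.00391), the first call being lost without experiment 1 or 4 in 2iL or experiment 4 at 24 h (adjusted p up to 0.0586). Nusap1, which bundles microtubules, rose from 149.7 ± 26.6 CPM to 214 ± 11.6 CPM at 24 h (log2 change 0.51 ± 0.12, adjusted p = 0.00248). Kif11, the motor that separates the spindle poles, rose from 63.98 ± 4.21 CPM to 87.1 ± 8.74 CPM (log2 change 0.44 ± 0.14, adjusted p = 0.0233), a call that any of 4 libraries decided (adjusted p up to 0.0724 without them). Kif2c and Kif4 did not pass at either time.

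Of the 6 cytokinesis genes, Kif20a, Kif23, Prc1, Ect2, Anln and Racgap1, 0 were called at 24 h and 0 at 48 h. Over all tested genes 7.68% rose and 8.29% fell at 24 h, and 14.6% and 13.2% at 48 h. With 6 genes, 0 calls lies near these shares. The log2 changes of the 6 genes at 24 h ran from -0.14 for Anln to 0.41 for Ect2. For these 6 genes an adjusted p of 0.0946 for Ect2 at 48 h was the lowest at either time. Of the chromosome genes, Top2a, the topoisomerase that untangles sister chromatids, was at 1356, 1489, 1322 and 1456 CPM in 2iL, 1489, 1915, 1587 and 1850 CPM at 24 h and 1636, 1691, 1598 and 1729 CPM at 48 h. Its log2 changes were small, 0.28 ± 0.09 (adjusted p = 0.0219) and 0.24 ± 0.09 (adjusted p = 0.0331), and with library totals in place of TMM they no longer passed (0.0975 and 0.0882). Leaving out any of 4 libraries ended the call at 24 h (adjusted p up to 0.106), and leaving out any of 7 ended that at 48 h (up to 0.123). Mki67, which encodes the proliferation marker Ki-67, was at 124, 155, 182 and 168 CPM in 2iL and between 128.2 and 187.1 CPM at 24 h. Its groups overlapped, with log2 changes of 0.08 ± 0.14 at 24 h and 0.06 ± 0.14 at 48 h and adjusted p of 0.783 and 0.801.

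**Figure D4:**
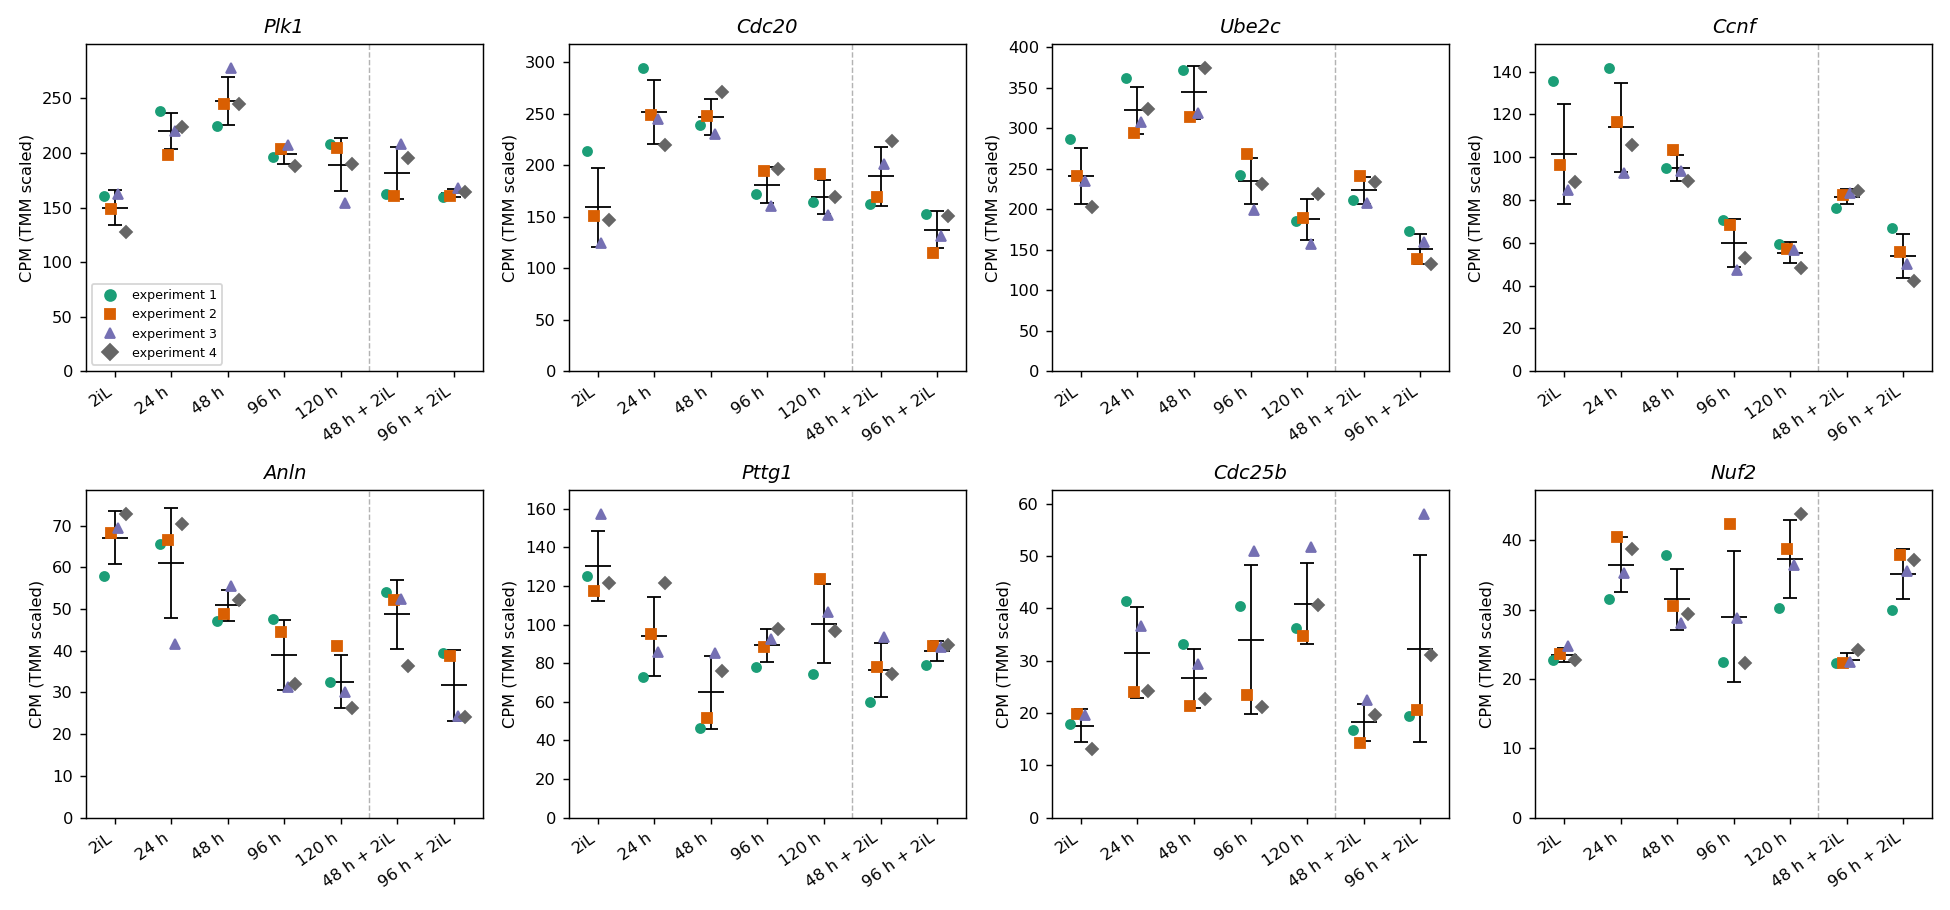
Level of 8 mitosis genes in CPM by group, each on its own scale from 0; points are the 4 experiments and bars the mean ± SD. The means of Plk1, Cdc20 and Ube2c are highest at 24 or 48 h, that of Pttg1 is lowest at 48 h, those of Cdc25b and Nuf2 are highest at 120 h, and Anln and Ccnf are lower than in 2iL at 96 and 120 h.

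The later times asked whether the early rise lasted. At 96 h 4 members rose and 3 fell, where 21.9% of all tested genes rose and 19.2% fell, and the member median was 0.027 on the log2 scale against 0.016 over all genes. Cdk1, Cdc25b, Plk1 and Aurkb rose and Ccnf, Pttg1 and Anln fell. Cdk1, the kinase itself, lay at the threshold (log2 change 0.38 ± 0.16, adjusted p = 0.0499) and lost its call without any of 7 libraries (up to 0.207). Leaving out experiment 1 in 2iL gave 7 that rose, and leaving out experiment 3 at 96 h gave 2. At 120 h 7 rose (Cdc25b, Plk1, Aurkb, Nuf2, Kif4, Tpx2 and Mki67) and 5 fell (Ccnf, Ube2c, Kif20a, Ect2 and Anln), where 24.6% and 22.6% of all tested genes did, with a median of 0.039 against 0.01. The count that rose was 3 without experiment 4 in 2iL and 4 without experiment 2 or 3 at 120 h, and the count that fell was 2 without experiment 1 in 2iL and 3 without experiment 3 at 120 h. With library totals in place of TMM, which moves the median of all genes by 0.121 at 120 h, 9 rose and 2 fell. With the block Pttg1 also fell at 120 h (adjusted p = 0.0208) and Bub1 rose (0.0496). Both counts at both times lay below the shares over all tested genes.

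Against 48 h the 96 h group was lower. No member rose and 10 fell, where 11.5% and 9.93% of all tested genes did, and the median was -0.232 against 0.017. At an unadjusted p under 0.05, 1 member rose, Pttg1, and DESeq2 called 0 that rose. Those that fell were Ccnf, Cdc20, Ube2c, Plk1, Aurka, Incenp, Birc5, Ttk, Hmmr and Top2a, and 33 of 40 changes were negative. Of these, Ube2c was at 242, 268, 199 and 231 CPM at 96 h, below all 4 libraries at 48 h (log2 change -0.55 ± 0.12, adjusted p = 0.00113). Aurka was at 81.2, 79.6, 71.1 and 87.2 CPM (log2 change -0.45 ± 0.13, adjusted p = 0.0137, and 0.0596 without experiment 3 at 96 h). Pttg1 instead was at 77.98, 88.5, 92.4 and 97.7 CPM, a log2 change of 0.47 ± 0.18 that missed the threshold and passed with the experiment block (adjusted p = 0.0606 without it and 0.0152 with it). With the block Bub1b (log2 change -0.36, adjusted p = 0.112 without it and 0.0449 with it) and Kif11 (-0.36, adjusted p = 0.052 and 0.0417) also fell. The count that fell was 5 with library totals and 6 without experiment 3 at 96 h. Plk1, Ttk, Hmmr, Incenp and Cdc20 also lost this call when certain single libraries were left out (adjusted p up to 0.156, 0.112, 0.0791, 0.0818 and 0.0682). This comparison shares the 48 h libraries with that of 48 h and 2iL.

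Of the genes higher than in 2iL at the later times, Plk1, called at all 4 times, was at 196, 204, 207 and 188 CPM at 96 h and 208, 204, 154 and 189.8 CPM at 120 h. All 4 libraries at 96 h lay above 2iL, and the log2 changes were 0.41 ± 0.11 (adjusted p = 0.00371) and 0.34 ± 0.11 (adjusted p = 0.0137; 0.076 without experiment 4 in 2iL and 0.0503 without experiment 2 at 120 h). Aurkb was at 10.6, 11.3, 13.9 and 10.5 CPM at 96 h and 11.2, 12.9, 9.01 and 8.93 CPM at 120 h, above every library in 2iL, and rose by 1.03 ± 0.32 (adjusted p = 0.0108) and 0.89 ± 0.33 (adjusted p = 0.0254; 0.086 without experiment 1 in 2iL and 0.075 without experiment 2 at 120 h). Nuf2 was at 30.2, 38.8, 36.5 and 43.8 CPM at 120 h, again above all of 2iL (log2 change 0.66 ± 0.19, adjusted p = 0.00388). Mki67 was at 162, 203, 236 and 200 CPM at 120 h and rose by 0.35 ± 0.14 (adjusted p = 0.0375), a call lost without any of 6 libraries (adjusted p up to 0.174). Kif4, a chromosome-bound motor, rose by 0.46 ± 0.18 (adjusted p = 0.0357), a call lost without any of 5 libraries (up to 0.126).

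Cdc25b had the largest increase of the members at 120 h. It was at 40.4, 23.4, 51.02 and 21.1 CPM at 96 h and 36.2, 34.8, 51.8 and 40.6 CPM at 120 h. Every library lay above those in 2iL, and it rose by 0.94 ± 0.30 (adjusted p = 0.0117) and 1.20 ± 0.30 (adjusted p = 0.00111). Experiment 3 was the highest library at both times and in 96 h + 2iL, and it also had the highest summed level of the 8 neural progenitor markers, 351 CPM at 96 h against 109.6 to 153.7 CPM in the other experiments. Without it the 96 h call was lost (adjusted p = 0.0857); the part of the marker genes in the result was not tested.

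The genes that fell late were Ccnf, Pttg1, Ube2c and 3 of the 6 cytokinesis genes. Over all tested genes 19.2% fell at 96 h and 22.6% at 120 h. Anln encodes anillin, the scaffold of the contractile ring. It was at 57.97, 68.3, 69.5 and 72.7 CPM in 2iL, 47.2, 48.9, 55.5 and 52.1 CPM at 48 h, 47.7, 44.5, 31.4 and 32.04 CPM at 96 h and 32.5, 41.2, 30.2 and 26.3 CPM at 120 h. All libraries from 48 h on lay below those in 2iL, and the gene fell by 0.79 ± 0.19 at 96 h (adjusted p = 0.00111) and 1.04 ± 0.19 at 120 h (adjusted p = 3.59e-05) on the log2 scale. Ccnf encodes cyclin F, the substrate receptor of a ubiquitin ligase, and was at 136, 96.2, 84.9 and 88.6 CPM in 2iL, 70.6, 68.3, 47.5 and 53.1 CPM at 96 h and 59.7, 57.1, 56.7 and 48.2 CPM at 120 h. It fell without overlap by 0.76 ± 0.16 (adjusted p = 0.000231) and 0.87 ± 0.16 (adjusted p = 3.45e-05). Ect2, the exchange factor that activates RhoA at the cleavage plane, was at 53.6, 42.1, 31.2 and 36.9 CPM in 2iL and 30.96, 28.3, 29.3 and 25 CPM at 120 h. It fell by 0.52 ± 0.19 (adjusted p = 0.025). The call was lost without experiment 1 in 2iL or experiment 4 at 120 h (0.125 and 0.0713), and with library totals (0.0847). Ube2c, after its early rise, was at 186, 189, 157 and 218 CPM at 120 h and fell against 2iL by 0.36 ± 0.12 (adjusted p = 0.0135), with overlap and not with library totals (0.101). Kif20a, a central spindle motor, fell by 0.57 ± 0.22 (adjusted p = 0.0321). That call was lost with library totals (0.104) and when certain single libraries were left out (up to 0.173, without experiment 1 in 2iL). In addition, 67.2% of the end sequence of Kif20a overlaps Cdc23 on the other strand, and whether the counting used strand is not given in the sources used here. Pttg1 was 0.55 ± 0.17 lower than in 2iL at 96 h on the log2 scale (adjusted p = 0.0111; 0.0601 without experiment 3 in 2iL).

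The return of 2iL after 48 h asked how far the change was undone within 24 h. In 48 h + 2iL against 48 h, 0 members rose and 10 fell, where 7.24% of all tested genes rose and 7.67% fell, and the median was -0.238 against 0 over all genes. At an unadjusted p under 0.05, 15 fell and 0 rose, and DESeq2 called 11 that fell and 0 that rose. The 10 were Ube2c, Plk1, Aurka, Incenp, Bub1b, Kif11, Tpx2, Nusap1, Hmmr and Top2a. Of the 13 members that had risen at 24 h, 9 were among them (69.2%), which is 90% of the 10; over all tested genes, 411 of 851 that rose at 24 h fell here (48.3%), and these were 48.4% of the 850 that fell. These 2 comparisons share no library. The count that fell was 6 without any of experiments 1, 2 and 4 at 48 h or experiments 1 and 2 at 48 h + 2iL. Of the 9 shared genes, Hmmr, Kif11, Tpx2 and Bub1b lost this call when certain single libraries were left out (adjusted p up to 0.12, 0.0982, 0.101 and 0.113). Incenp, the other of the 10, lost it likewise (up to 0.13).

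Aurka was at 59.6, 71.9, 68.2 and 74.01 CPM at 48 h + 2iL, below all libraries at 48 h, and fell by 0.67 ± 0.13 on the log2 scale (adjusted p = 0.000518). Ube2c was at 211, 241, 207 and 234 CPM and fell by 0.62 ± 0.12 (adjusted p = 0.000371), also without overlap. Top2a was at 1160, 1194, 1187 and 1219 CPM and fell by 0.48 ± 0.09 (adjusted p = 0.000146), to below every library in 2iL. Plk1 was at 163, 161, 208 and 196 CPM and fell by 0.45 ± 0.11 (adjusted p = 0.00494). Bub1b was at 85.4, 72.3, 68.6 and 78.2 CPM (log2 change -0.52 ± 0.16, adjusted p = 0.0252), a call lost without any of 5 libraries (adjusted p up to 0.113). In each of these 5 genes the libraries of the 2 groups did not overlap, as held for 21.1% of all tested genes. Cdc20, at 162, 169.5, 201 and 224 CPM, missed the threshold without the experiment block and passed with it (adjusted p = 0.0552 and 0.0371), as did Ect2 (0.0663 and 0.0362). Against 2iL itself, 48 h + 2iL differed in 1 member, Pttg1, which fell, while 0 rose; 6.14% and 5.49% of all tested genes rose and fell. Pttg1 was at 59.6, 78.2, 93.5 and 74.5 CPM (log2 change -0.77 ± 0.17, adjusted p = 0.00317), and so remained below all 4 libraries in 2iL. Top2a also passed with the block (adjusted p = 0.0661 without it and 0.0341 with it). Without experiment 1 in 2iL, 2 members rose, Ccna2 and Cdc20.

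The return of 2iL after 96 h gave fewer calls than that after 48 h, both among the members and over all tested genes. The counts of members called against 96 h lay near or below the shares over all tested genes. Against 96 h, 0 members rose and 2 fell, Ube2c and Fbxo5, where 4.02% and 5.23% of all tested genes did, with a median of -0.183 against 0.001 and 30 of 40 changes negative. With the block 5 fell, Cdc20, Nusap1 and Ect2 being the further genes (adjusted p = 0.041, 0.0427 and 0.0343), and 15 fell and 0 rose at an unadjusted p under 0.05, against 3 and 0 with DESeq2. The count was 7 without experiment 3 at 96 h, with Ccnb1, Cdc20, Bub1b, Nusap1 and Ect2 added, 1 without experiment 1 at 96 h or experiment 2 at 96 h + 2iL, and 3 without experiment 3 at 96 h + 2iL, when Hmmr also fell. Ube2c was at 174, 139, 159 and 133 CPM, below every library at 96 h and in 2iL, and fell by 0.64 ± 0.12 (adjusted p = 0.000737). Fbxo5 was at 70.6, 64.3, 65.8 and 64.1 CPM at 96 h and 51.7, 40.01, 48.2 and 45.9 CPM at 96 h + 2iL, and fell by 0.51 ± 0.14 (adjusted p = 0.0158; 0.0775 without experiment 2 at 96 h + 2iL).

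Against 120 h, the group of equal total time, 0 members rose and 0 fell with edgeR's test, where 1.28% and 1.34% of all tested genes did. At an unadjusted p under 0.05, 9 fell and 0 rose, and DESeq2 called 2 that fell, Tpx2 and Nusap1. The median was -0.216 against 0.008 and 36 of 40 changes were negative. Without experiment 3 at 96 h + 2iL, 1 member fell, Tpx2. Whether the response to 2iL differed between 96 h and 48 h was tested as an interaction, and 0 members rose or fell, where 0.451% and 0.469% of all tested genes did. At an unadjusted p under 0.05, 3 had a positive and 1 a negative difference, DESeq2 called 0, and with the block Top2a passed (log2 difference 0.41, adjusted p = 0.123 without it and 0.0487 with it).

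Against 2iL, 96 h + 2iL had 2 members that rose (Cdc25b and Nuf2) and 9 that fell (Ccnb1, Ccnf, Ube2c, Fbxo5, Pttg1, Kif2c, Ect2, Anln and Top2a), where 21.4% and 19.5% of all tested genes did. The count that fell lay near the share over all tested genes, and the count that rose lay below it. The median was -0.161 against 0.013. Ccnb1, Ect2 and Top2a lost this call when certain single libraries were left out (adjusted p up to 0.143, 0.117 and 0.0905). Top2a also lost it with library totals (0.0992). Anln was at 39.4, 38.8, 24.3 and 24.2 CPM and Ccnf at 66.9, 55.7, 50.1 and 42.2 CPM, with log2 changes of -1.07 ± 0.20 (adjusted p = 3.96e-05) and -0.91 ± 0.16 (adjusted p = 2.86e-05), close to the 120 h levels of 32.5 ± 6.31 and 55.4 ± 4.99 CPM. Cdc25b was at 19.5, 20.6, 57.9 and 31.04 CPM, and its call was lost without experiment 3 (adjusted p = 0.0215 with it and 0.292 without it) or without experiment 4 in 2iL (0.0714). Without experiment 3 at 96 h + 2iL, 1 rose and 8 fell.

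Of 52 further mitotic genes, 50 were tested. At 24 h 6 rose and 2 fell, where 7.68% and 8.29% of all tested genes did, with a median of 0.115. At 48 h 5 rose and 3 fell (14.6% and 13.2% of all genes), and at 120 h 7 rose and 8 fell (24.6% and 22.6%). The core subunits of the anaphase-promoting complex gave 3 that rose and 0 that fell of 15 at 24 h, against 2 and 4 at 120 h. Pimreg, at 4.83, 3.43, 3.38 and 2.84 CPM in 2iL and 14.6, 11.8, 12.6 and 8.29 CPM at 24 h, rose by 1.69 ± 0.38 (adjusted p = 0.0017) and reached 46.6, 58.6, 66.7 and 41.97 CPM at 120 h. Cks1b, a small CDK-binding protein, rose by 0.84 ± 0.14 at 24 h (adjusted p = 6.79e-05) and fell by 0.69 ± 0.14 on the return of 2iL after 48 h (adjusted p = 0.000709). Pkmyt1, a kinase that holds CDK1 inactive, fell by 0.65 ± 0.16 at 24 h (adjusted p = 0.00519).

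Of 35 DNA replication genes, which act before mitosis in S phase, 4 rose and 0 fell at 24 h, where 7.68% and 8.29% of all tested genes did. At 48 h 5 rose and 1 fell (14.6% and 13.2% of all genes), and at 120 h 5 rose and 10 fell (24.6% and 22.6%). Ccne1, cyclin E1, rose by 0.85 ± 0.13 at 24 h (adjusted p = 2.35e-05) and fell by 0.58 ± 0.13 at 48 h + 2iL against 48 h (adjusted p = 0.00216). The median of this list was 0.057 at 24 h, against 0.31 for the 40 mitosis genes and 0.011 for all tested genes, and these medians were not tested against each other.

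Of 17 tested regulators of mitotic genes, 3 rose and 1 fell at 24 h, where 7.68% and 8.29% of all tested genes did. At 120 h 5 rose and 4 fell, near the shares over all tested genes (24.6% and 22.6%). E2f8, a repressor of E2F targets, was at 12.6, 27.5, 21.4 and 12.5 CPM in 2iL, 36.5, 49.96, 37.2 and 58.1 CPM at 24 h and 17.2, 24.8, 17.9 and 10.7 CPM at 48 h + 2iL. It rose by 1.27 ± 0.27 at 24 h (adjusted p = 0.000806) and fell by 1.16 ± 0.27 on the return of 2iL (adjusted p = 0.00244). Tfdp2, a partner of E2F proteins, rose by 1.01 ± 0.20 (adjusted p = 0.000339) and fell by 1.00 ± 0.20 (adjusted p = 0.000424). Mybl2, or B-MYB, which binds MuvB at mitotic promoters, was at 87.4, 88.01, 86.4 and 124 CPM in 2iL and 15.3, 19.4, 22.1 and 11.2 CPM at 120 h. It fell by 2.50 ± 0.22 at 120 h (adjusted p = 6.91e-11), with no overlap between the groups, while the summed level of the mitosis genes overlapped with 2iL at that time.

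Of 7 tested CDK inhibitors and antiproliferative genes, 0 rose and 2 fell at 24 h, where 7.68% and 8.29% of all tested genes did. Cdkn1a, which encodes the CDK inhibitor p21, was at 565, 879, 902 and 888 CPM in 2iL, 246, 259, 221 and 267 CPM at 24 h, 291, 356, 248 and 247 CPM at 48 h and 888, 873, 1314 and 1000 CPM at 48 h + 2iL. It ran opposite to the mitosis genes at these times, falling by 1.70 ± 0.19 at 24 h (adjusted p = 1.29e-07) and rising by 1.83 ± 0.19 on the return of 2iL (adjusted p = 2.51e-08). At 96 h + 2iL it was at 865, 966, 440.4 and 534 CPM, with experiments 3 and 4 the low libraries, as they were for the naive markers. For the 9 listed genes summed, the opposite course did not continue at the later times. Their sum was 503 ± 57.6 CPM at 96 h and 452 ± 52.7 CPM at 120 h, against 1033 ± 176 CPM in 2iL. The summed level of the mitosis genes overlapped with 2iL at both times. Of 10 tested mitochondrially encoded genes, 0 rose and 0 fell at 24 and 48 h (at 48 h, 14.6% and 13.2% of all tested genes did). At 120 h 0 rose and 6 fell, where 24.6% and 22.6% of all tested genes did. The summed level of the mitochondrially encoded genes was 22140 to 29360 CPM in 2iL and 10330 to 15810 CPM at 120 h. Its part in the late changes described here was not tested.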

How the data were processed

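RNA from 28 cultures of E14 cells (7 groups, 4 experiments) was sequenced by the 3′ digital method named in the labels' protocols. Per the submitters' processing notes, bcl2fastq, STAR 2.6.0a and HTSeq were used with mm10; the role and order of each, the annotation and the strand setting are not given in the sources used here. The authors deposited raw counts per gene for 31053 genes in each library, which no scaling had touched. They also deposited a CPM table of 30386 genes, and in 28 of 28 columns this table held the counts of that library rescaled to a common total, within 1e-06. Reads aligned to more than 1 place made up 52.3% to 60.1% of those listed and were not counted, which lowers genes with copies.

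From the counts, genes passing edgeR's filterByExpr (minimum count 10, minimum total 15) were fitted with all 7 groups in 1 quasi-likelihood model (edgeR 4.0.16, R 4.3.3, TMM), two-sided, and p-values were adjusted over all 11080 genes. CPM printed here use the TMM-scaled totals of the tested genes. Alternatives were library totals, DESeq2 1.42.0, no filter, at least 20 counts in at least 4 libraries, the experiment number as a block, fits of the compared groups alone, and each library left out; summed levels on library totals and without Top2a were added after seeing the data. On data simulated for 24 h against 2iL over 10769 genes, the test recovered 7.94% of genes changed 1.5-fold, 47% at 2-fold and 81% at 4-fold, with 1.14% false among the calls.

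The sample titles give each library an experiment number, read as a shared experiment. The main tests did not use it as a pairing. It entered as a block in 1 alternative fit and in the counts of experiments that went the same way. Over 84 pairs of libraries with 1 number, deviations from the group means correlated at -0.042 to 0.421 (median 0.068, against -0.028 for different numbers). For 25 of 28 libraries, the mean correlation with libraries of other groups was highest for their own number. Pairs of replicates differed by more than counting noise, with a chi-square per gene of 2.29 to 10.4 over 42 pairs. The 40 members and all other gene lists were chosen with earlier results of these data known. Each member could be named; values in every library are given for the members called most often in each role and for those that moved against their role, and up to 4 called genes with the largest change were named from other lists. Annotated positions come from GENCODE M21 (GRCm38). The shared share of a gene's end is the percentage of 50-base words in the last 500 bases of its protein-coding transcripts that occur in transcripts of other genes; this was over 10% in 5 members. Figures were drawn with matplotlib 3.10.9.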

Additional observations from a re-analysis of the deposited data

Results flagged for a closer look

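In 7 of 119 groups of 4 library values examined, over 16 genes and the summed level of all 40, 1 library stood apart from the other 3 by more than Dixon's 95% critical value; chance alone gives about 1 in 20 groups. Anln, the contractile ring scaffold, was at 41.6 CPM in experiment 3 at 24 h against 65.6 to 70.5 CPM in the other experiments. At 48 h + 2iL Anln was at 36.3 CPM in experiment 4 against 52.2 to 54.1 CPM. Tpx2, the activator of Aurora A, was at 227.5 CPM in experiment 1 in 2iL against 163.1 to 173.2 CPM, and at 241.8 CPM in experiment 3 at 120 h against 216.7 to 218.3 CPM. Pttg1 was at 78.8 CPM in experiment 1 at 96 h + 2iL against 88.6 to 89.4 CPM. At 48 h + 2iL experiment 4 was also the highest for Nuf2, at 24.2 CPM against 22.2 to 22.4 CPM, and for Hmmr, at 116.4 CPM against 108.1 to 109.3 CPM. In Nuf2, Hmmr and Pttg1 the single value lies near the others, whose own range is narrow.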

How the results depend on the processing

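Over the alternatives tried, 0 member changes reversed a call, and most kept their side of the threshold. With library totals, 16 member calls were lost and 5 gained. Counts of members then became 1 that fell at 24 h (Pttg1), 2 that fell at 120 h, 1 that rose (Pttg1) and 5 that fell at 96 h against 48 h, and 1 that fell (Tpx2) at 96 h + 2iL against 120 h; over all genes the share of calls that rose moved from 53.7% to 64.8% at 96 h against 48 h and from 49% to 38.6% in the interaction. With no filter, which adds thinly counted genes, 30 calls were lost: 1 fell at 24 h, 2 rose at 96 h and 2 at 120 h, 1 rose and 5 fell at 96 h against 48 h, 6 fell at 48 h + 2iL against 48 h, 1 fell at 96 h + 2iL against 96 h, and 1 rose at 96 h + 2iL against 2iL. The strict filter and DESeq2 each gave 2 that fell at 48 h + 2iL against 2iL (Pttg1 and Top2a), and DESeq2 gave 2 that fell at 96 h + 2iL against 120 h. A fit of the compared groups alone gave 2 that fell at 48 h (Pttg1 and Anln). The cause of these moves was not tested.

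With the experiment number as a replicate block, 19 member calls were gained and 0 lost: 1 member fell at 24 h, 1 rose at 96 h against 48 h, 5 fell at 96 h + 2iL against 96 h, 2 fell at 48 h + 2iL against 2iL, and 1 passed in the interaction with a positive difference. The blocked values stand beside the results they change, and the block changed no other call.

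Leaving out 1 library at a time gave 9 to 13 that rose and 0 to 1 that fell at 24 h, 9 to 13 that rose and 1 that fell at 48 h, 2 to 7 that rose and 2 to 4 that fell at 96 h, and 3 to 7 that rose and 2 to 6 that fell at 120 h. It gave 0 to 1 that rose and 6 to 8 that fell at 96 h against 48 h, 6 to 8 that fell at 48 h + 2iL against 48 h, and 1 to 7 that fell at 96 h + 2iL against 96 h. It gave 0 to 1 that fell at 96 h + 2iL against 120 h, 0 to 2 that rose and 1 that fell at 48 h + 2iL against 2iL, and 1 to 2 that rose and 7 to 9 that fell at 96 h + 2iL against 2iL. Depth limits the members with few counts, Aurkb, Cks2 and Cdc25c, and in simulated data for 24 h against 2iL 7.94% of genes changed 1.5-fold were recovered, so a member that did not pass may still have changed.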
